A study of Mus musculus with 4 samples.

Results

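Transcripts of Hif1a and of 9 enzymes of glycolysis (Hk1, Hk2, Pfkl, Aldoa, Gapdh, Pgk1, Eno1, Pkm and Ldha) were followed in mouse macrophages with and without the Pparg gene. The members were fixed by name, and each probe set with values that the platform annotation assigns to 1 of them was taken, 17 of the 12488 rows of the table. They cover 9 of the 10 genes, out of 7578 genes with values, since no row analysed here is assigned to Eno1. A probe set is a group of short probes against one transcript, and its signal is an intensity on a linear scale with no fixed unit. The cells came from mice of a mixed 129/SV and C57BL/6 background that were labelled as PPARg WT or PPARg KO, for the receptor gene Pparg. The labels name neither the deleted part of the gene nor a promoter that drove the deletion, nor the age or sex of the mice. All groups were given 2.5 ml of thioglycollate at 3% into the peritoneum, an irritant that draws in monocyte-derived cells, and the cells were washed out on day 3. Plating was in 10% serum with a wash at 5 h, and 24 h in 0.5% serum followed; the labels name no ligand, cytokine or hypoxia. Each genotype had 2 one-colour Affymetrix arrays, and the second array of each carries the suffix dup in its description. The labels do not say that the arrays came from separate mice or cultures, so p-values measure only how far these arrays vary, and that variation may be technical.

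Glycolysis splits glucose into pyruvate in the cytosol, and lactate dehydrogenase turns pyruvate into lactate. Hif1a encodes the oxygen-regulated subunit of hypoxia-inducible factor 1, which pairs with ARNT, binds a short DNA core and raises transcription of most glycolytic genes. Macrophages depend strongly on glycolysis, and loss of Hif1a is known to impair their energy supply and motility. The HIF-1α protein is controlled mainly by hydroxylation and degradation when oxygen is present, so an mRNA level is not a measure of its activity.

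The promoters of Hif1a, Pgk1 and Ldha are shown because they carry the DNA core that HIF binds, in the factor's own gene and in 2 of its textbook enzyme targets. Each is the stretch of 250 bases before the gene's start in RefSeq on GRCm38.p6, 5′ to 3′ on the gene's strand, with every ACGTG or its reverse complement CACGT in capitals. Overlapping matches run together as CACGTG. The Hif1a stretch is chr12:73907617-73907866 (plus strand), that of Pgk1 is chrX:106186850-106187099 (plus strand), and that of Ldha is chr7:46845554-46845803 (plus strand), the one of its 2 annotated starts that holds a match.
Hif1a: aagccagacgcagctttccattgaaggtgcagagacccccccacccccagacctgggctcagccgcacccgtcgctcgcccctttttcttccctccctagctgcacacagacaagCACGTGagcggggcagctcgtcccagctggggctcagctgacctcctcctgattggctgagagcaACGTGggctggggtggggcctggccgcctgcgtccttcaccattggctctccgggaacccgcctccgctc
Pgk1: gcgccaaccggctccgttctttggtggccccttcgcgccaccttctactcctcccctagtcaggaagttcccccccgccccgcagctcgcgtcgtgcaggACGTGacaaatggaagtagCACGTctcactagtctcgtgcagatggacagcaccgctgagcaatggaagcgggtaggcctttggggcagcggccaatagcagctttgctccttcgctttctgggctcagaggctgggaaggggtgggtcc
Ldha: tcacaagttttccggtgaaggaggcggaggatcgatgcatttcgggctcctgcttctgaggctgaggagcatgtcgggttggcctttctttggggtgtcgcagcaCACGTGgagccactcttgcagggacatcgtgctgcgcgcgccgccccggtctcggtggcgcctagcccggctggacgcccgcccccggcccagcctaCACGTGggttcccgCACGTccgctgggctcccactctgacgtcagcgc

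The core was found at 2 places before Hif1a, 2 before Pgk1 and 3 before this start of Ldha. Over the member genes, 6 of 10 had it before at least 1 start (Hif1a, Hk2, Aldoa, Pgk1, Pkm and Ldha), in 7 of 17 windows, some of which overlap. Of all 32851 windows of that length, 16.6% held it. The other form of the core, GCGTG or CACGC, was found in 7 of 17 member windows (for Hk1, Pfkl, Gapdh, Eno1 and the second start of Ldha) and in 28.2% of all. A direct repeat of AGGTCA with a spacer of 1 base, the kind bound by PPAR receptors, was in 0 of 17 member windows and in 0.0335% of all, both strands searched. These matches describe sequence only, since no binding was measured.

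The targeted gene was checked first. Pparg signals were 61.1 and 73.1 in WT, against 43.0 and 40.6 in KO (limma adjusted p = 0.00012, fitted without a signal filter). All 4 signals lay below the median of the antisense control probes of their array (103.8, 116, 111.4 and 106.65), so the size of the fall is not measured, and a probe set outside the deleted part would check nothing. Macrophage markers were present: 10 of 10 were above the signal filter, with Cd68 between 6209.6 and 6955.5 and Lyz2 between 6871.6 and 7518.7 on every array. Their levels were not all equal between genotypes, since 7 of the 10 had lower means in KO (given with the other cell markers below). Array medians on the log2(signal + 16) scale differed by 0.049 at most. Log2 fold changes below are KO minus WT on that scale, with limma standard errors and Benjamini-Hochberg adjustment over all 6395 probe sets tested. Folds are taken on the same scale and understate changes of dim probe sets.

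Hif1a was lower in KO on both of its probe sets. The probe set 98628_f_at, built from the mRNA AF003695, gave signals of 1821.8 and 1713.8 in WT, against 1172.3 and 1232.5 in KO. The other, 98629_f_at from the mRNA Y09085, read 1318.2 and 1166.5 in WT and 912.8 and 921.4 in KO. On each probe set both KO arrays lay below both WT arrays, as they did for 21.1% of all tested probe sets. The KO mean was 68.0% of the WT mean on the first and 73.8% on the second. The first fell 1.46-fold, from 1768 ± 76.4 to 1202 ± 42.6 (SD, n = 2; log2 fold change -0.55, SE 0.16, adjusted p = 0.018). The second gave a log2 fold change of -0.43 (SE 0.16, 95% interval -0.74 to -0.12) and did not pass (adjusted p = 0.13). So 1 of the 13 member probe sets tested passed as lower and 0 as higher, where 2.58% of all tested probe sets passed as lower and 1.06% as higher.

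The Hif1a call rests on few arrays. Without WT replicate 1 the log2 fold change of the first probe set was -0.51, and without WT replicate 2 it was -0.59. Without KO replicate 1 it was -0.51, and without KO replicate 2 it was -0.59. The spread in such a fit comes from the complete pair of the other genotype alone. The first probe set passed without either KO array but missed the threshold without either WT array. It also missed the threshold after median centring of the arrays (adjusted p = 0.073) and without variance moderation (adjusted p = 0.77, unadjusted p = 0.010 by limma). The second probe set passed after quantile normalization (adjusted p = 0.0071) and cyclic loess (adjusted p = 0.0013). The suffix f is the manufacturer's mark for probes that related sequences can share, and the 2 probe sets may not be independent readings of the transcript.

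**Figure D1:**
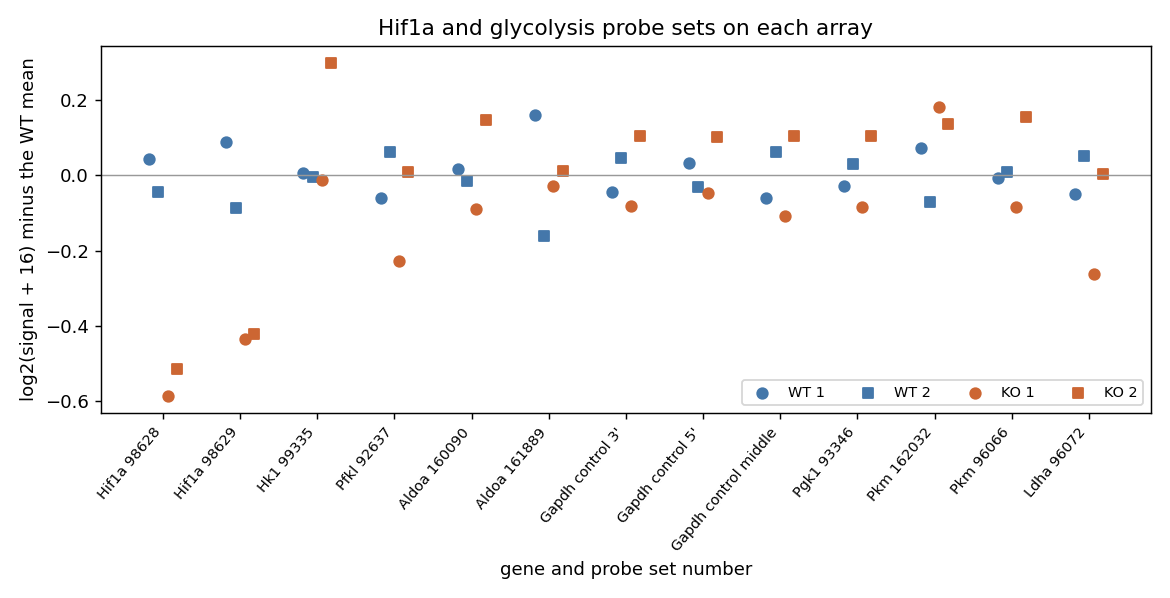
Log2(signal + 16) of each tested Hif1a and glycolysis probe set on each of the 4 arrays (vertical axis), minus the mean of the 2 WT arrays, by gene and probe set number (horizontal axis); circles are replicate 1 and squares replicate 2 of WT (blue) and KO (orange). Both KO arrays lie between -0.42 and -0.59 for Hif1a, while for the enzymes the KO arrays stand on both sides of 0, except for 1 Pkm probe set.

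**Figure D2:**
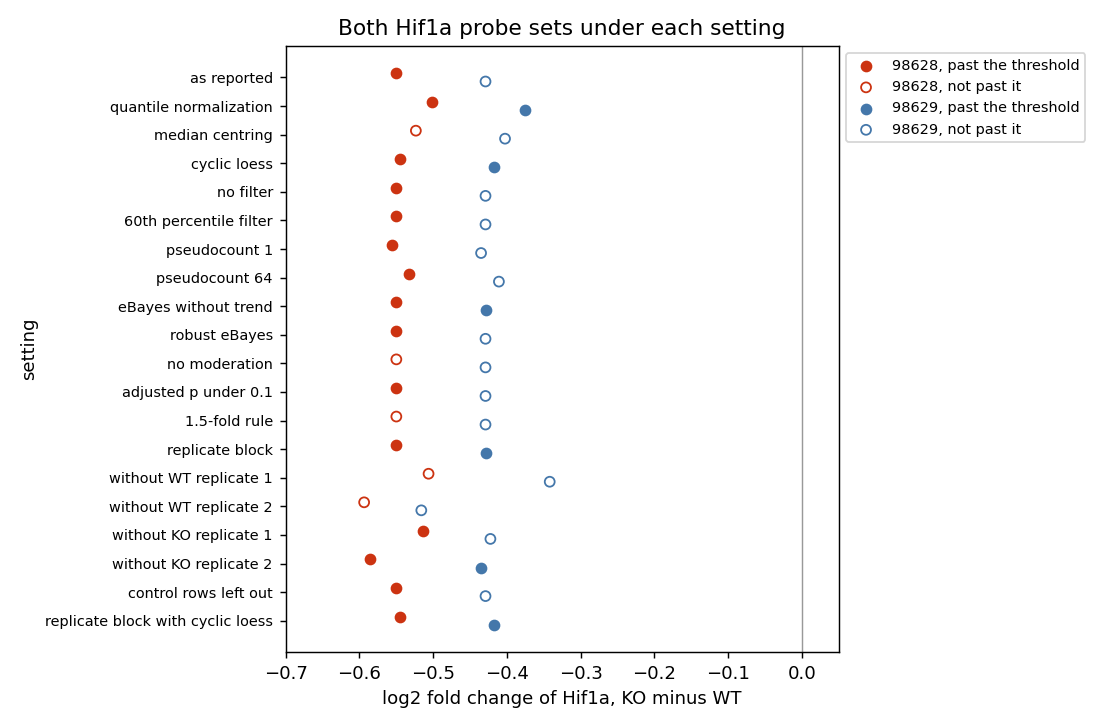
Log2 fold change of Hif1a, KO minus WT (horizontal axis), for its 2 probe sets under the reported setting and 19 others (vertical axis); filled points passed the threshold of that setting. Values run from -0.59 to -0.50 for the brighter probe set and from -0.52 to -0.34 for the dimmer, all below 0. Settings that change only the filter, test, threshold, control rows or block repeat the reported value, and only another normalization could have reversed it.

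No glycolysis enzyme passed the test in either direction. Of 11 enzyme probe sets tested (7 genes, with Gapdh read by 3 control probe sets), 0 passed limma's test as lower or higher, 0 had an unadjusted p under 0.05 (609 of all 6395 did), and each had adjusted p = 0.9997. Their log2 fold changes ran from -0.13 to 0.16 with a median of 0.01, against a median of -0.02 over all tested probe sets. The 95% intervals of the enzymes ran between -0.42 and 0.46, with the lowest end for Ldha (1.34-fold lower) and the highest for the dimmer Pkm probe set (1.37-fold higher), and changes within each interval are not excluded. The KO arrays lay wholly below the WT arrays for 0 of the 11 and wholly above for 1, where 21.1% and 11.3% of all tested probe sets did so.

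The first steps of the pathway commit glucose to the cell. Hk1, the hexokinase that phosphorylates glucose in most tissues, read 783.6 and 778.6 in WT and 773.6 and 964.1 in KO (log2 fold change 0.14, 95% interval -0.16 to 0.44). The excess was on KO replicate 2 alone, and KO replicate 1 lay below both WT arrays. Hk2, the inducible hexokinase, has 1 probe set with values, which read 13.7 and 12.4 in WT and 11 and 13.5 in KO. These signals were far below the antisense control median of every array, so Hk2 was not well above background here and no difference can be read from it. A further Hk2 row was blank on all 4 arrays and was not analysed here. Pfkl, the liver-type phosphofructokinase at the main control point of the pathway, read 627.2 and 682.9 in WT and 556.7 and 658.7 in KO (log2 fold change -0.11, 95% interval -0.40 to 0.18). Its lowest value was on KO replicate 1, and the genotypes overlapped.

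The middle steps gave log2 fold changes close to 0. Aldoa, which splits fructose bisphosphate, read 2134.8 and 2089.8 in WT and 1982.4 and 2339.9 in KO on its brighter probe set (log2 fold change 0.03, SE 0.16). Its second probe set read 671.1 and 534.1 in WT and 586.4 and 603.9 in KO (log2 fold change -0.01, SE 0.15). On both probe sets the arrays of the genotypes overlapped. Gapdh, which makes the first high-energy phosphate bond of the pathway, was read by 3 control probe sets along its transcript. The 5′ set gave 6029.0 and 5775.7 in WT and 5708.3 and 6325.2 in KO, and the middle set gave 6910.2 and 7519.1 in WT and 6679.6 and 7748.3 in KO. The 3′ set gave 6422.9 and 6837.8 in WT and 6258.0 and 7127.7 in KO. Their log2 fold changes were 0.03, -0.003 and 0.01, and the KO arrays enclosed the WT arrays on all 3. Pgk1, which makes ATP in the next step, read 1421.3 and 1482.1 in WT and 1368.8 and 1560.4 in KO (log2 fold change 0.01, 95% interval -0.30 to 0.32).

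Other Gapdh rows read something besides this transcript. The 3 antisense control rows read between 106.4 and 150.1 on all arrays and serve only as background. They are themselves among the rows that set the antisense control median. The 3′ and middle antisense rows lay above that median on every array. A probe set that the annotation gives to Gapdh and 2 pseudogenes together read 3611.6 and 3669.1 in WT and 3310.5 and 3764.2 in KO. Another that it gives to Gapdh and 1 pseudogene read between 159.2 and 181.4. Neither is counted for Gapdh.

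The last steps make pyruvate and lactate. Pkm, the pyruvate kinase gene of macrophages, read 4458.5 and 4510.7 in WT and 4227.9 and 4995.9 in KO on its brighter probe set (log2 fold change 0.04, SE 0.15). Its dimmer probe set read 821.0 and 741.9 in WT and 886.4 and 858.8 in KO, with both KO arrays above both WT arrays (log2 fold change 0.16, 95% interval -0.14 to 0.46). Which splice forms of Pkm each probe set reads was not analysed here. Ldha, the lactate dehydrogenase subunit that HIF is known to raise, read 4910.8 and 5271.7 in WT and 4243.5 and 5100.4 in KO. Its log2 fold change of -0.13 (95% interval -0.42 to 0.16) came from KO replicate 1, since KO replicate 2 lay between the WT arrays.

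**Figure D3:**
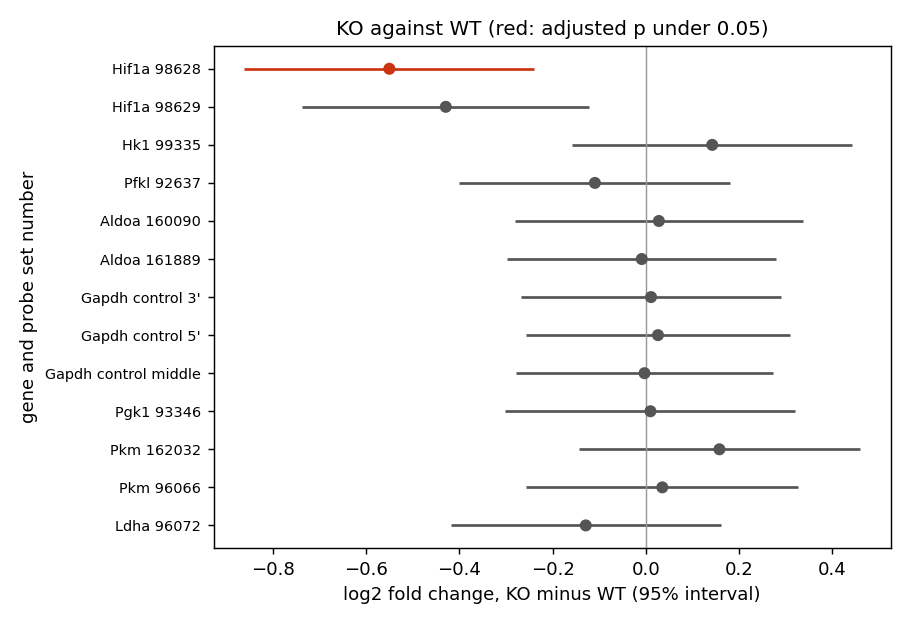
Log2 fold change, KO minus WT (horizontal axis), of each tested member probe set (vertical axis), with bars for limma's 95% interval; red marks adjusted p under 0.05. The intervals of both Hif1a probe sets lie below 0, and those of all 11 enzyme probe sets include it.

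For most enzymes the 2 KO arrays stood further apart than the 2 WT arrays. KO replicate 2 exceeded KO replicate 1 for 7 of the 8 enzyme probe sets that are no controls, and so did 71.0% of all tested probe sets, and 97.0% of those in the top decile of brightness. Averaged over those 8, the enzymes stood at -0.08 on KO replicate 1 and 0.11 on KO replicate 2 relative to the WT mean. The 9 bacterial and phage control probe sets of the BioB, BioC, BioDn and CreX kind, which read no mouse transcript, stood at -0.18 and 0.07 on the same arrays. All 9 also read higher on replicate 2 than on replicate 1 in both genotypes. The brighter Hif1a probe set stood at -0.59 and -0.51 there, and relative to the 8 enzyme probe sets of the same array at -0.51 and -0.62, against 0.03 and -0.03 in WT. The part of the array shift in any member's value was not tested, and 2 arrays against 2 allow an exact two-sided permutation p of 0.33 at the smallest. RNA integrity, read as the 3′ over 5′ signal of Gapdh, was 1.07 and 1.18 in WT and 1.10 and 1.13 in KO. The same ratio for the actin control was higher, at 1.48 and 1.54 in WT and 1.52 and 1.44 in KO.

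**Figure D4:**
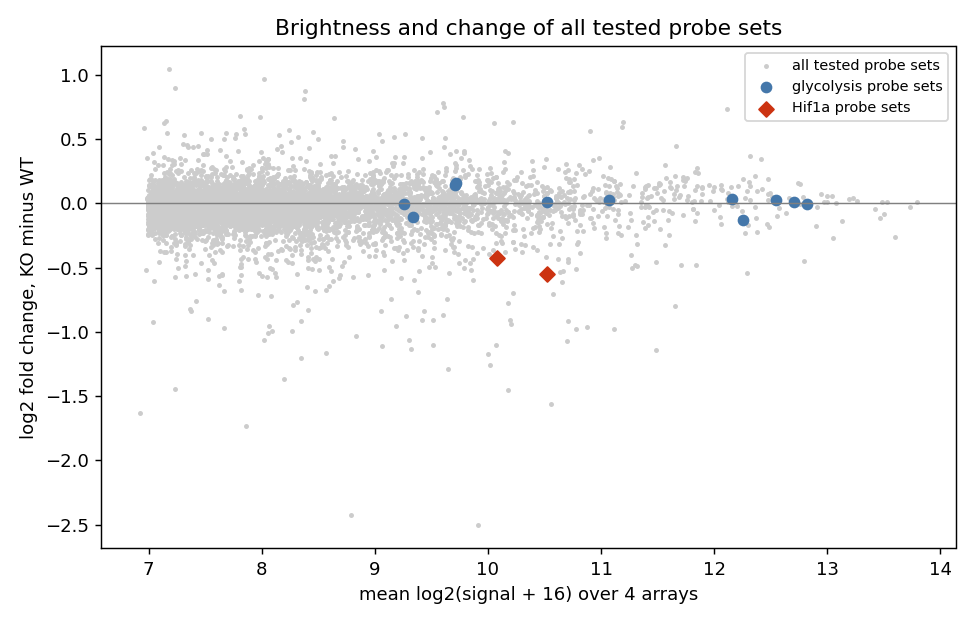
Log2 fold change, KO minus WT (vertical axis), against mean log2(signal + 16) over the 4 arrays (horizontal axis) for 6395 tested probe sets (grey), the enzyme probe sets (blue) and Hif1a (red diamonds). The enzymes lie close to 0 up to the brightest signals, between -0.13 and 0.16, and the Hif1a probe sets lie below most probe sets of like signal, at -0.43 and -0.55.

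The other genes of the pathway were read from lists defined by pathway role and drawn up with earlier results of these data known, with each gene represented by its brightest tested probe set. Over all such genes, 2.72% passed as lower and 1.08% as higher (136 and 54 of 5001), with a median log2 fold change of -0.02. Over 68 tested genes of 8 lists around glycolysis and HIF, 0 passed as lower and 1 as higher, with a median of -0.02. By limma 7 of the 68 had an unadjusted p under 0.05, where 475 of all 5001 genes did.

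None of the remaining glycolysis enzymes tested passed the threshold. Of 9 tested, 0 passed and 1 had an unadjusted p under 0.05, with a median log2 fold change of 0.05. Tpi1, triose phosphate isomerase, read 2159.4 and 2261.5 in WT and 2192.3 and 2406.8 in KO, and Pgam1, phosphoglycerate mutase, had means of 1919 and 2076. The lowest was Pfkp, the platelet-type phosphofructokinase, at 306.3 and 317.6 in WT and 215.7 and 265.9 in KO (log2 fold change -0.36, SE 0.12, adjusted p = 0.077). Both of its KO arrays lay below both WT arrays, as for 21.1% of all tested probe sets. Pfkp passed after cyclic loess (adjusted p = 0.036) and without an intensity trend (adjusted p = 0.046). The KO arrays stood apart, since without KO replicate 1 its log2 fold change was -0.22 (adjusted p = 0.49) and without KO replicate 2 it was -0.50 (adjusted p = 0.0018). Over all its alternatives the adjusted p ran from 0.00056 to 0.9999. Gapdhs, the sperm-type relative of Gapdh, had means of 320 and 351 and did not pass.

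Supply and branch pathways gave no gene past the threshold. Of 6 tested glucose and lactate transport genes, 0 passed and 1 had an unadjusted p under 0.05, Slc2a1. This main glucose transporter gene and HIF target read 405.8 and 422.7 in WT and 321.3 and 358.4 in KO (log2 fold change -0.28, SE 0.13, adjusted p = 0.44). Both KO arrays lay below both WT arrays, as for 21.1% of all tested probe sets. Slc2a3 and Slc2a5 read 122 and 154 in WT and 119 and 150 in KO, on average. The Slc2a3 signals, 109 to 134.7, lay near the antisense control medians of the arrays (103.8 to 116). Of 4 genes for control of flux and gluconeogenesis, 5 of pyruvate dehydrogenase and its kinases, 6 of the pentose phosphate pathway and 6 of glycogen, 0 passed in each list and 0 had an unadjusted p under 0.05. Their medians were -0.08, -0.08, -0.07 and 0.01. Pfkfb3, which makes the main activator of phosphofructokinase, had means of 127 and 144 in WT and KO. The gluconeogenesis genes Pck2 and Pcx had 160 and 130 in WT and 141 and 115 in KO. Pfkfb3 and Pcx were dim, and Pcx lay near the antisense control medians in KO (114.2 and 116.0). The pyruvate dehydrogenase genes Pdhb and Dlat had 305 and 246 in WT and 356 and 220 in KO, and the kinase gene Pdk3 had 278 and 243. In the pentose phosphate pathway, Pgd, Rpia and H6pd had 1492, 525 and 485 in WT and 1280, 457 and 450.4 in KO. Among the glycogen genes, Ugp2, Gys1 and Phkg2 had 224, 266 and 208 in WT and 262, 241 and 189 in KO.

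No gene that controls HIF passed the threshold among those tested. Of 13 tested partners and regulators, 0 passed and 1 had an unadjusted p under 0.05, Cul2, with a median of -0.04. Arnt, the binding partner, read 138.0 and 152.6 in WT and 139.6 and 141.0 in KO. Egln1, the main oxygen-sensing hydroxylase that marks HIF-1α for degradation, had means of 267 and 232 (log2 fold change -0.19, adjusted p = 0.76). Cul2, the cullin of the ligase that degrades HIF-1α, had means of 276 and 220 (log2 fold change -0.31, adjusted p = 0.17). Cited2 and Siah2 had means of 191 and 188 in WT and 164 in KO for each, and neither passed. Epas1, which encodes HIF-2α, lay below the signal filter at 64.8 and 69.4 in WT and 86.9 and 105.5 in KO (adjusted p = 0.0048 without a filter). All 4 Epas1 signals were under their array's antisense control median, and no size of change is stated.

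HIF targets outside glycolysis had log2 fold changes on both sides of 0. Of 19 tested, 1 rose, 0 fell and 18 did not pass, and the median log2 fold change was -0.004. The riser was Cxcr4, a chemokine receptor gene, at 177.1 and 135.6 in WT and 202.6 and 222.8 in KO (log2 fold change 0.42, SE 0.11, adjusted p = 0.0070). Leaving out WT replicate 2 (log2 fold change 0.24, adjusted p = 0.9999) or KO replicate 2 (log2 fold change 0.35, adjusted p = 0.059) ended this call. Nampt, an enzyme of NAD synthesis, read 843.5 and 809.3 in WT and 566.9 and 666.1 in KO (log2 fold change -0.42, SE 0.15, adjusted p = 0.12). The transferrin receptor gene Tfrc had means of 754 and 1000 (log2 fold change 0.41, adjusted p = 0.16), and Ndrg1 had means of 223 and 279 (0.31, adjusted p = 0.18). Vegfa, the angiogenic growth factor often used to read HIF activity, read 132.5 and 137.5 in WT and 139.7 and 131.6 in KO. The genotypes overlapped, and the signal was dim.

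Of the 9 HIF target genes that lay below the signal filter, each at its brightest probe set, 2 passed as lower, 0 as higher and 7 did not pass in the fit without a filter. Over all probe sets of that fit, 243 passed as lower and 90 as higher. That fit held the 10649 probe sets with values that are no controls, and the Gapdh control rows. These counts are of probe sets and not of genes. The median log2 fold change of the 9 genes was -0.10. The 2 were Nos2 and Il1b. Nos2, the inducible nitric oxide synthase gene, read 96.1 and 84.3 in WT and 47.3 and 48.7 in KO (adjusted p = 3.72e-09 without a filter). Il1b, the interleukin-1β gene, read 125.5 and 116.6 in WT and 74.6 and 74.8 in KO (adjusted p = 1.02e-05). The WT arrays stood above the KO arrays for both genes. All Nos2 signals and the KO signals of Il1b lay below the antisense control median, so the sizes of these falls are not measured. Ak4, a mitochondrial adenylate kinase gene, was as dim. Its KO arrays lay below its WT arrays on both probe sets, and the change passed on 1 of them (adjusted p = 0.00026 and 0.14). These genes and Epas1 were singled out after their values were seen.

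**Figure D5:**
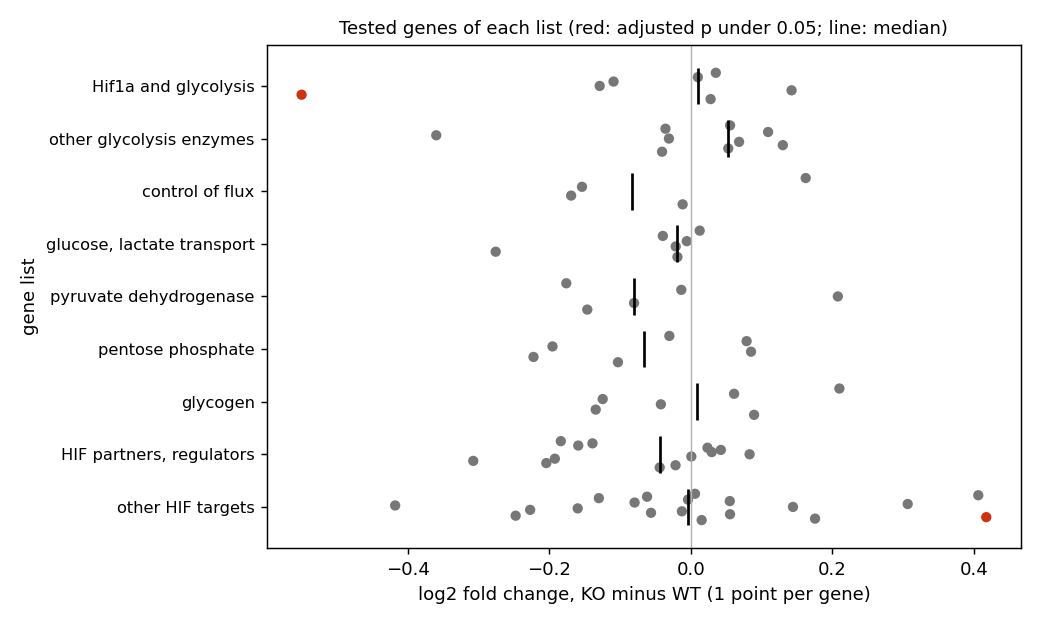
Log2 fold change, KO minus WT (horizontal axis), of each tested gene in 9 lists (vertical axis), 1 point per gene at its brightest probe set (Gapdh, read by controls, is left out), with the list's median as a line; red marks adjusted p under 0.05. The medians lie between -0.08 and 0.05, Hif1a stands lowest at -0.55, and Cxcr4 is the only other red point, at 0.42.

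The genes whose pattern over the 4 arrays lay nearest to Hif1a were named by the distance between centred log2 values, over 4994 other genes. They were Slc8a1 at 191.3 and 187.9 in WT and 119.6 and 130.2 in KO, Inhba at 327.8 and 322.4 in WT and 209.1 and 217.7 in KO, and Ifih1 at 309.1 and 300.4 in WT and 205.4 and 215.5 in KO. Their distances were 0.052, 0.052 and 0.058 log2 units. Likeness over 4 arrays is a description only.

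Markers of other cells in a lavage were set beside the Hif1a result, since in bulk RNA fewer cells of a type and less RNA per cell cannot be told apart. Of 4 tested neutrophil markers, 1 fell, S100a8, from 530 to 350 (log2 fold change -0.58, adjusted p = 0.0015). The summed signal of the 4 was 1299 and 1334 in WT and 1150 and 1116 in KO. The 3 others alone summed to 782 and 792 in WT and 819 and 746 in KO, without S100a8. Most of that sum was Csf3r, at 442.5 and 453.2 in WT and 494.9 and 434.4 in KO. Elane, at 111.8 to 126.1, lay near the antisense control medians. Ly6g and S100a9 were below the filter at 62.4 to 82.8 on all arrays. Of a fibroblast and mesothelial list, 5 markers were tested, all of fibroblasts, and 1 rose, Dcn, from 589 to 1002 (adjusted p = 6.13e-05). All 5 had higher means in KO, and 4 had an unadjusted p under 0.05 by limma. The median log2 fold change was 0.29, and the sum was 1734 and 1687 in WT and 2218 and 2554 in KO. The mesothelial genes Msln, Wt1, Upk3b and Krt19 were below the filter, and without it none passed at its brightest probe set. A dimmer Krt19 probe set passed in that limma fit (58.5 and 58.7 in WT, 80.2 and 93.9 in KO, adjusted p = 0.0014). All its signals lay under the antisense control median. Of 10 macrophage markers, 1 fell, Mertk, from 230 to 143 (adjusted p = 1.35e-06), with a list median of -0.12. Means were lower in KO for 7 of the 10 and higher for 3, where 2887 of all 5001 genes had lower means. By limma 2 of the 10 had an unadjusted p under 0.05, Mertk and Adgre1 (1429.2 and 1421.2 in WT, 1062.8 and 1212.8 in KO). The sum of the 10, most of it from the bright Lyz2 and Cd68, was 22002 and 22677 in WT and 21051 and 24093 in KO. B cell (6 tested), T and NK cell (2), dendritic cell (3), red cell (3), eosinophil (1) and mast cell markers (1) had 0 past the threshold, none with an unadjusted p under 0.05 by limma. The part of these cells in the Hif1a value was not tested.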

How the data were processed

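Per the labels, RNA of 2 PPARg WT and 2 PPARg KO macrophage samples was labelled from 10 µg of total RNA and read on 1 array each. The deposited table holds 1 intensity per probe set and array. How the authors summarised, background-corrected and scaled it is not given in the sources used. Of 12488 rows, 1780 were blank and not analysed here. Of 10649 probe sets with values that are no controls, the annotation gave 1 gene for 9389, several for 341 and none for 919. Symbols were matched to the GRCm38.p6 gene table by gene identifier.

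Values were used as deposited, because array medians differed by under 0.1. Control rows were left out except the 6 Gapdh rows, and 6395 probe sets whose mean signal exceeded 111, the 40th percentile, were kept. The genotypes were compared on log2(signal + 16) with limma 3.58.1 (R 4.3.3): lmFit, eBayes with an intensity trend, two-sided, adjusted p under 0.05. The trend pools the spread over probe sets of like signal (12790 degrees of freedom in all, from 2 for each probe set), so p-values are too small for genes that vary more than that. The code was tested on simulated data. Every member was named, and of each glycolysis or HIF list the genes that passed (up to 6) and up to 3 others with the smallest p; other named genes serve as examples, picked with values in view. Members and lists were chosen with earlier results of these data known. Figures used matplotlib 3.10.9 in Python 3.11.15.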

Additional observations from a re-analysis of the deposited data

How the results depend on the processing

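Hif1a kept its direction on both probe sets under all 19 alternatives, with log2 fold changes from -0.59 to -0.50 (brighter set) and from -0.52 to -0.34 (dimmer set). Most of these could not have changed it. Changes of filter, test, threshold or control rows, and the replicate block alone, repeat the reported value. Leaving out an array or changing the pseudocount cannot reverse it, since both KO arrays lay below both WT arrays. Only the settings with another normalization could have done so. The mean of the 2 probe sets gave -0.49 (adjusted p = 0.040). The number of arrays limits the precision, and calls depend on how the spread is estimated. The causes of the changes below were not tested. The combination of replicate block and cyclic loess was added after seeing the data.

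Against 1 member probe set past the threshold as lower and 0 as higher, 2 passed as lower after quantile normalization, cyclic loess or without the trend, and 0 after median centring, without moderation or with the 1.5-fold rule; leaving out an array gave 0 to 2. Over all tested, against 68 higher and 165 lower, quantile normalization gave 169 higher and 247 lower, cyclic loess 161 and 278, the 1.5-fold rule 19 and 72, and no moderation 0 and 0 (392 with an unadjusted p under 0.05, against 609 with moderation, both by limma). The 60th percentile filter gave 44 higher. Leaving out an array gave 7 to 130 higher and 51 to 284 lower. Over the 68 companion genes, against 1 higher and 0 lower, quantile normalization gave 3 and 1, cyclic loess 3 and 3, no filter 2 and 2, no trend 2 and 2, an adjusted p of 0.1 gave 1 lower, no moderation and the 1.5-fold rule gave 0 higher, and leaving out an array gave 0 to 2 higher and 0 to 3 lower. Pseudocounts of 1 and 64, robust moderation and leaving out the Gapdh controls kept all these counts within 1.5 times.

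The replicate numbers are not said to pair the samples. Over tested probe sets, replicate 2 minus replicate 1 correlated between genotypes at 0.42. With the replicate block, 2 member probe sets passed as lower, both of Hif1a, 145 of all tested as higher and 341 as lower, and 3 companion genes each way. Pfkp was among those lower (adjusted p = 0.0025). With the replicate block and cyclic loess together, 3 members passed as lower (both Hif1a probe sets and Ldha at -0.14) and 2 as higher (Hk1 at 0.16 and the dimmer Pkm probe set at 0.18), 420 of all tested as higher and 509 as lower, and 6 and 8 companion genes.

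Values near 0 changed sign. The dimmer Aldoa probe set was 0.026 after quantile normalization, 0.018 after median centring and 0.017 after cyclic loess with and without the block. The 3′ Gapdh set was -0.0051 after cyclic loess with and without the block, the middle Gapdh set 0.024 after median centring, and the mean of the 3 Gapdh sets 0.011. Slc2a3 was 0.0090 after quantile normalization, 0.0051 after median centring and 0.011 after cyclic loess with and without the block, and Slc2a5 was 0.0014 after quantile normalization. Leaving out an array gave -0.014 to 0.30 for Hk1, -0.23 to 0.0091 for Pfkl, -0.091 to 0.15 and -0.17 to 0.15 for the brighter and dimmer Aldoa sets, and -0.048 to 0.0999, -0.11 to 0.10 and -0.082 to 0.10 for the 5′, middle and 3′ Gapdh sets. It gave -0.084 to 0.10 for Pgk1, -0.085 to 0.16 for the brighter Pkm set, -0.26 to 0.0035 for Ldha, -0.17 to 0.088 for Slc2a5 and -0.16 to 0.11 for Slc2a3. None of the values in this list of sign changes and ranges passed the threshold.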
